A study of Homo sapiens with 12 samples.

Results

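The 10 genes described here, ASNS, ATF3, ATF4, ATF5, CEBPB, CEBPG, CHAC1, CTH, DDIT3 and DDIT4, belong to the ATF4-CHOP branch of the integrated stress response. They were read by symbol from a table of 4918 genes, whose symbols run from A1BG to FAM46B, and all 10 were present with values above 0 in every sample. They were chosen with results of the same table known, because DDIT3 had the largest difference between cells treated with SB-3CT and IFN-γ and cells treated with IFN-γ alone, and CHAC1 had one of the largest with SB-3CT alone. Their differences with SB-3CT are therefore given below as a description, without a test. RNA was measured in A375, an established human malignant melanoma cell line, in 4 groups of 3 samples. The groups were Control, labelled as untreated, SB-3CT, an inhibitor of the gelatinases MMP-2 and MMP-9, IFN-γ, a cytokine that induces PD-L1, and SB-3CT+IFN-γ, with RNA collected after 24 h. The treatment notes mention a vehicle without saying which groups received it, and they give no dose for these samples. All groups are of a single cell line, and nothing states that the 3 samples of a group came from separate cultures, so the spread between them may be technical.

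In the integrated stress response, kinases that sense amino acid shortage, misfolded protein, heme shortage or double-stranded RNA phosphorylate the translation factor eIF2. General protein synthesis then slows, while translation of the ATF4 mRNA increases through its upstream reading frames, so ATF4 activity is set largely at a step that mRNA levels do not show. ATF4 pairs with C/EBP-family and other bZIP proteins at C/EBP-ATF response elements, also called amino acid response elements, and raises amino acid synthesis, redox and feedback genes as well as DDIT3, which encodes CHOP.

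The deposited values were log2(FPKM + 1), where FPKM is fragments per kilobase of transcript adjusted for how many fragments a sample had mapped, a measure that allows for transcript length. Relative depth, taken from the steps that whole reads leave in FPKM values below 0.15, lay between 87.2% and 150.3% of the mean of the controls, and the absolute number of reads is unknown. CXCL10, a chemokine gene induced by IFN-γ, had 0, 0 and 0.05 FPKM in the controls, was listed at 0 in all 3 SB-3CT samples, and lay between 78.7 and 122 FPKM in the 6 samples with IFN-γ. CD274, which encodes PD-L1, had 0.428 to 0.808 FPKM in the 6 samples without IFN-γ and 13.5 to 23.9 FPKM in the 6 samples with it. Of 6 melanoma or neural crest markers, AXL, CSPG4, ERBB3 and EDNRB had about 4.0 FPKM or more in every sample, whereas DCT did not exceed 0.384 FPKM and ABCB5 did not exceed 0.0246 FPKM. The sum of the 6 was lowest with both agents, at 102 to 110.3 FPKM against 152 to 153 FPKM in the controls. The 11 measured markers of T, B, myeloid, endothelial, epithelial and fibroblast cells were all below 0.5 FPKM in every sample.

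To show the sequence through which ATF4 is known to reach its targets, the 500 bases before the annotated transcript start of each gene were searched on both strands for TGATGNAA, the core of the amino acid response element. It was present in 4 of the 10 genes, ASNS, ATF3, CHAC1 and DDIT3, and in 4.77% of the 20176 promoters of protein-coding genes searched in the same way (963 promoters). The genes were grouped as ATF4 genes to begin with, so their share is a description. These 4 genes also had the largest differences in log2(FPKM + 1) of the 10 with SB-3CT alone, though not with SB-3CT under IFN-γ. DDIT3 and CHAC1 were singled out on differences with SB-3CT, so this too is only a description. The matches of the 4 genes are printed here in hg19 (GRCh37), each as 30 bases on the strand of the gene with the matched core in capitals.
ASNS, chr7:97501770-97501799, minus strand: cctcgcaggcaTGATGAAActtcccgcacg
ATF3, chr1:212781889-212781918, plus strand: cctccccgaacTTGCATCAccagtgccccc
ATF3, chr1:212782071-212782100, plus strand: tataaaaggggTGATGCAAcgctctccaag
CHAC1, chr15:41245449-41245478, plus strand: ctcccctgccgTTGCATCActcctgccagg
DDIT3, chr12:57914585-57914614, minus strand: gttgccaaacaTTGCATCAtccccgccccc

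The core lay 68 to 61 bases before the start in ASNS, 203 to 196 and 21 to 14 bases before it in ATF3, 209 to 202 bases in CHAC1 and 306 to 299 bases in DDIT3. In 3 of the 5 matches, the first of ATF3 and those of CHAC1 and DDIT3, the same letters TTGCATCA appeared, which is the core read on the opposite strand. By the annotation the ASNS stretch lay within an exon of another ASNS transcript and only partly within exons of further ones. The second ATF3 stretch lay in an exon of another ATF3 transcript and the CHAC1 stretch in an exon of another CHAC1 transcript. The DDIT3 stretch lay within the span of DDIT3 but in none of its exons, and also within MBD6 on the opposite strand. The cAMP response element TGACGTCA, a site for other ATF and CREB proteins, was found in none of the 10 genes and in 2.88% of all promoters (581 promoters).

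**Figure D1:**
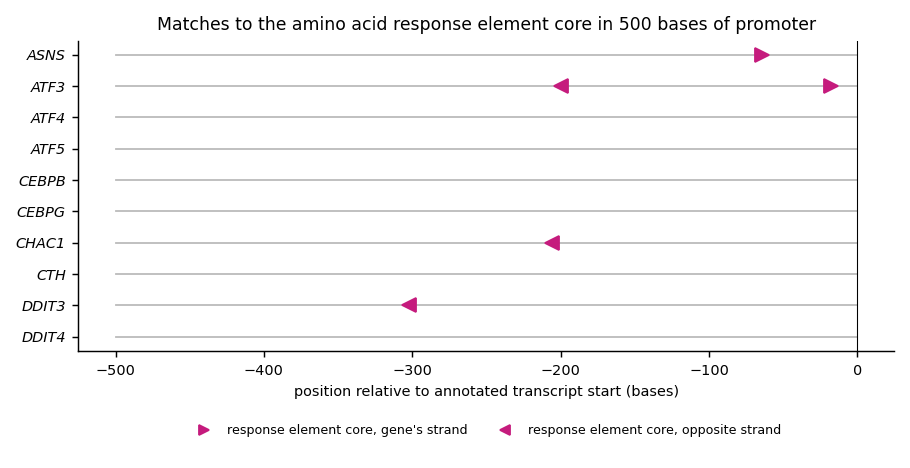
Matches to the amino acid response element core (triangles, pointing right where the core is on the gene's strand and left where it is on the opposite strand) by position in bases relative to the annotated transcript start, for the 500 bases before the start of each of the 10 genes. ASNS, CHAC1 and DDIT3 have 1 match each, ATF3 has 2, and the other 6 genes have none in this window.

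In untreated cells the mean levels of the 10 genes spanned ATF4 at 257 FPKM to CTH at 3.57 FPKM. ATF4 and DDIT4 (163 FPKM) stood above all others, followed by ASNS (32.8 FPKM), ATF5 (22.9 FPKM), CEBPB (22.1 FPKM) and DDIT3 (18.3 FPKM), and CHAC1 (5.50 FPKM), CEBPG (5.11 FPKM), ATF3 (4.07 FPKM) and CTH (3.57 FPKM) were lowest. Neighbours whose control samples overlapped were ATF5 and CEBPB, CEBPB and DDIT3, CHAC1 and CEBPG, and ATF3 and CTH.

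With SB-3CT alone, 9 of the 10 genes were higher in all 3 treated samples than in all 3 controls, as were 14.2% of all genes, and CEBPB was the exception. CHAC1 was 2.48-fold, DDIT3 1.93-fold, ATF3 1.91-fold and ASNS 1.60-fold higher by mean FPKM, and the other 5 genes were 1.12-fold to 1.37-fold higher. With SB-3CT on top of IFN-γ, the difference was concentrated in DDIT3 (2.39-fold), ASNS (1.75-fold) and CHAC1 (1.60-fold), while ATF3 was at about the same level in both groups. With IFN-γ alone ATF3, CHAC1 and ASNS were higher than in the controls, and DDIT3 overlapped them.

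**Figure D2:**
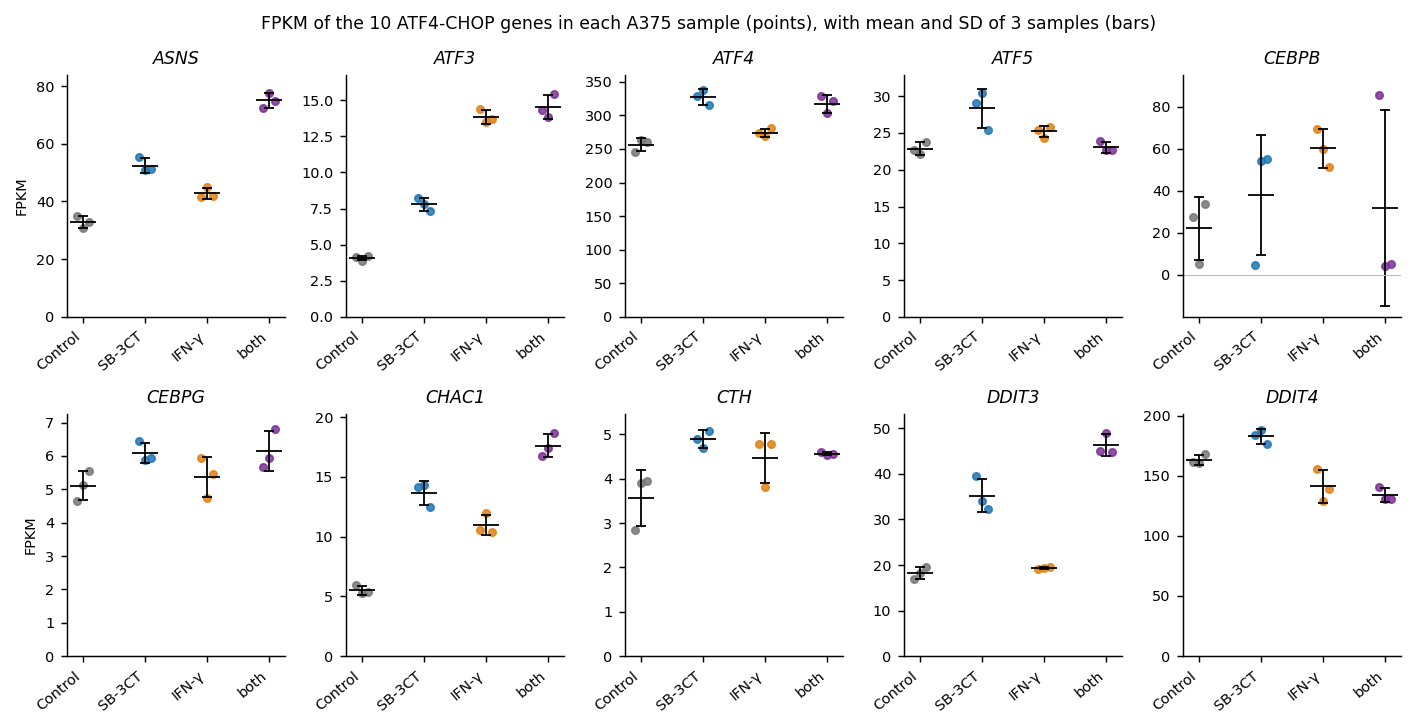
FPKM (y axis, from 0) of the 10 genes in the 4 groups, with each sample as a point and the mean and SD of 3 samples as bars, "both" standing for SB-3CT+IFN-γ. DDIT3 separates the 6 samples with SB-3CT (32.4 to 49.1 FPKM) from the 6 without (17.0 to 19.6 FPKM), ATF3 separates the 6 with IFN-γ from the 6 without, and CEBPB splits within 3 of the 4 groups.

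ATF4 (chromosome 22, 39915700 to 39918688, plus strand of hg19, as for all positions below) encodes the bZIP activator on which the response turns. It had 246, 263 and 261 FPKM in the controls, 329, 338 and 315 FPKM with SB-3CT, 274, 269 and 281 FPKM with IFN-γ, and 328, 303 and 321 FPKM with both. Every sample with SB-3CT lay above every sample without it. On the log2(FPKM + 1) scale, used for all differences that follow, ATF4 was higher by 0.35 (standard error 0.05) with SB-3CT alone and by 0.21 (0.05) with SB-3CT under IFN-γ. The second value turned to -0.05 after quantile normalization.

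DDIT3 (chromosome 12, 57910371 to 57915520, minus strand) encodes CHOP, a C/EBP-family factor that accumulates under prolonged stress. It had 17.0, 18.3 and 19.5 FPKM in the controls and 39.5, 34.0 and 32.4 FPKM with SB-3CT. With IFN-γ it had 19.1, 19.3 and 19.6 FPKM, and with both agents 45.1, 49.1 and 44.7 FPKM. The 4 groups fell into 2 low and 2 high ones, the low pair overlapping and the high pair not. The difference with SB-3CT was 0.91 (0.08) without IFN-γ, the 7th highest of the 4918 genes, and 1.22 (0.05) with IFN-γ, the highest of all. Over the alternatives the second ran from 1.01, with the trend with transcript length taken out of every sample, to 1.47. The DDIT3 gene overlaps MARS1 and MBD6 on the opposite strand and a further annotated gene on its own strand, so reads from them could not be told apart from its own where the counting did not use strand, which the sources used here do not state.

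ATF3 (chromosome 1, 212738676 to 212794119, plus strand) encodes a bZIP factor induced by many stresses and by cytokines. It had 4.11, 3.89 and 4.22 FPKM in the controls, 8.21, 7.85 and 7.30 FPKM with SB-3CT, 14.4, 13.5 and 13.7 FPKM with IFN-γ, and 14.3, 13.8 and 15.4 FPKM with both. The order was Control, then SB-3CT, then the 2 groups with IFN-γ, which overlapped each other. The difference with SB-3CT was 0.79 (0.07) without IFN-γ and 0.06 (0.06) with it. The latter became 0.30 under median-ratio scaling, where samples are rescaled by the median, over genes, of their ratio to the mean sample. It became 0.28 under quantile normalization. ATF3 was called higher in both and under no other alternative.

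ATF5 (chromosome 19, 50431959 to 50437192, plus strand), which encodes a bZIP factor whose mRNA is translated under stress in a manner like that of ATF4, had 22.7, 22.1 and 23.8 FPKM in the controls, 29.1, 30.5 and 25.4 FPKM with SB-3CT, 25.4, 24.4 and 25.8 FPKM with IFN-γ, and 24.0, 22.6 and 22.6 FPKM with both. SB-3CT samples were above the controls, and samples with both agents were below those with IFN-γ. The difference with SB-3CT was 0.29 (0.07) without IFN-γ and -0.12 (0.05) with it. The latter became 0.12 under median-ratio scaling and 0.01 under quantile normalization. NUP62, IL4I1 and a further annotated protein-coding gene overlap ATF5 on the opposite strand, the last over 5234 bases.

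CEBPG (chromosome 19, 33864591 to 33873592, plus strand), a dimer partner of ATF4 without an activation domain of its own, lay between 4.65 and 6.81 FPKM in all 12 samples. Its SB-3CT samples (5.88 to 6.44 FPKM) were above the controls (4.65 to 5.53 FPKM), a difference of 0.22 (0.08), and under IFN-γ the groups overlapped, with a difference of 0.16 (0.10).

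CEBPB (chromosome 20, 48807367 to 48809205, plus strand), an intronless gene encoding the C/EBPβ factor that pairs with ATF4 and CHOP, had 27.6, 5.16 and 33.6 FPKM in the controls, 4.88, 54.1 and 55.3 FPKM with SB-3CT, 69.6, 60.0 and 51.2 FPKM with IFN-γ, and 85.8, 4.31 and 5.43 FPKM with both. Control 2, SB-3CT 1 and samples 2 and 3 with both agents thus formed a low set of 4 at 4.31 to 5.43 FPKM, and the other 8 samples lay at 27.6 to 85.8 FPKM, a gap of 5.09-fold between the nearest samples of the sets. Its largest range within a group, 4.03 on the log2 scale, was the largest of the 4918 genes, and the next was 2.25, that of CNTNAP3P2.

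Among genes with a mean of at least 1 FPKM, 7 including CEBPB had all 4 of these samples below the other 8. How many genes do so for other sets of 4 samples was not counted, so the 7 have no background. The relative depth of the 4 samples was 91.6% to 140.8%, within the range of the others. CEBPB-AS1, which overlaps CEBPB on the opposite strand, had 0.0966 to 0.397 FPKM in the 4 samples and 0.245 to 0.419 FPKM in the other 8. Any part of the libraries in this split was not tested. The CEBPB differences with SB-3CT, 0.53 (1.00) without IFN-γ and -2.08 (0.97) with it, rested on which samples fell in the low set. Without Control 2 the first was -0.26, without SB-3CT 1 it was 1.61, and without the second SB-3CT+IFN-γ sample the other was -1.36.

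Among the enzyme genes, ASNS (chromosome 7, 97480989 to 97501854, minus strand) encodes asparagine synthetase, a standard readout of amino acid shortage. It had 35.0, 30.6 and 32.9 FPKM in the controls, 55.3, 50.7 and 51.1 FPKM with SB-3CT, 41.6, 44.9 and 41.9 FPKM with IFN-γ, and 72.5, 77.6 and 74.8 FPKM with both. None of the 4 groups overlapped another, and they stood in the order Control, IFN-γ, SB-3CT and both. The difference with SB-3CT was 0.66 (0.06) without IFN-γ and 0.80 (0.05) with it, the 16th and the 15th highest of all genes. An annotated long non-coding RNA gene overlaps ASNS on its own strand over 20855 bases.

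CHAC1 (chromosome 15, 41245160 to 41248710, plus strand) encodes an enzyme that degrades glutathione and is a target of ATF4 and CHOP. It had 5.91, 5.26 and 5.33 FPKM in the controls, 14.2, 14.3 and 12.5 FPKM with SB-3CT, 10.6, 12 and 10.4 FPKM with IFN-γ, and 16.8, 17.4 and 18.6 FPKM with both. Again no group overlapped another, in the same order as for ASNS. The difference with SB-3CT was 1.17 (0.07) without IFN-γ, the 3rd highest of all genes, and 0.64 (0.07) with it, the 36th.

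CTH (chromosome 1, 70876901 to 70905534, plus strand), which encodes the cystathionine gamma-lyase that makes cysteine, had 2.84, 3.91 and 3.95 FPKM in the controls and 4.90, 4.70 and 5.09 FPKM with SB-3CT, a difference of 0.38 (0.11). With IFN-γ it had 4.78, 3.82 and 4.79 FPKM and with both agents 4.61, 4.53 and 4.56 FPKM, and these groups overlapped, with a difference of 0.03 (0.10). Control 1 was the lowest sample of all 12 for CTH.

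DDIT4 (chromosome 10, 74033678 to 74035794, plus strand), which encodes the mTORC1 inhibitor REDD1, had 161, 161 and 168 FPKM in the controls, 184, 188 and 176 FPKM with SB-3CT, 156, 129 and 139 FPKM with IFN-γ, and 140.4, 131 and 131 FPKM with both. SB-3CT samples were the highest, controls came next, and the 2 groups with IFN-γ were lowest and overlapped. The difference with SB-3CT was 0.16 (0.04) without IFN-γ and -0.07 (0.08) with it, and the latter became 0.18 under median-ratio scaling.

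The genes were chosen on the 2 comparisons with SB-3CT, so their counts are set beside those of all genes as a description. For SB-3CT against Control, limma called 6 of the 10 higher at an adjusted p under 0.05 (ASNS, ATF3, ATF4, ATF5, CHAC1 and DDIT3) and 0 lower, where 5.37% of all genes were called higher and 6.87% lower. At an unadjusted p under 0.05 these counts were 9 and 0. The groups did not overlap in 9 genes, all higher, against 14.2% of all genes higher and 19.7% lower. ATF4 and ATF5 were both no longer called without Control 1, Control 2, Control 3 or SB-3CT 2, with differences of 0.32 to 0.37 and 0.24 to 0.32, and ATF5 alone was lost without SB-3CT 1 (0.27). For SB-3CT+IFN-γ against IFN-γ, 4 were called higher (ASNS, ATF4, CHAC1 and DDIT3) and 0 lower, where 6.41% of all genes were called higher and 31.5% lower, and unadjusted the counts were 4 and 1. Without overlap, 4 were higher and ATF5 was lower, against 9.35% and 39.6% of all genes. ATF4 was no longer called without IFN-γ 3, SB-3CT+IFN-γ 1 or SB-3CT+IFN-γ 3, with differences of 0.18 to 0.23, and CEBPB was called lower without SB-3CT+IFN-γ 1 (-3.38).

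The median difference of the 3177 genes with a mean of at least 1 FPKM was -0.03 for SB-3CT against Control and -0.20 for SB-3CT+IFN-γ against IFN-γ, and that of the 10 genes was 0.45 and 0.11. Relative to these medians DDIT3 was higher by 0.94 and 1.42, ASNS by 0.69 and 0.99, and CHAC1 by 1.20 and 0.84. Under median-ratio scaling the median of SB-3CT+IFN-γ against IFN-γ became 0.02 and 8 of the 10 were called higher, all but ATF5 and CEBPB. With the length trend removed this median was -0.01, so most of the shift went with transcript length. DDIT3, whose transcript of 903 bases is the shortest of the 10, then differed by 1.01 and ASNS by 0.96.

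**Figure D3:**
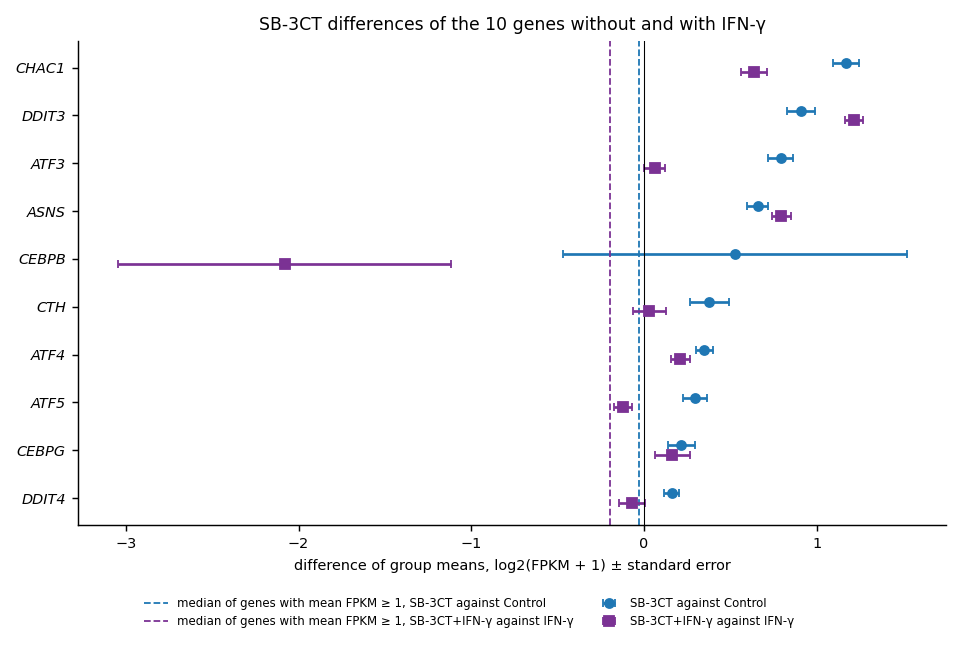
Difference of group means, log2(FPKM + 1), with its standard error for each of the 10 genes: SB-3CT against Control and SB-3CT+IFN-γ against IFN-γ, with dashed lines at the median of all genes with a mean of at least 1 FPKM (-0.03 and -0.20). DDIT3 and ASNS lie far to the right of both lines, ATF3 is at 0.79 without IFN-γ and 0.06 with it, and the CEBPB bars are wider than those of any other gene.

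The difference between the 2 SB-3CT differences, fitted over all 12 samples, was -0.73 (0.09) for ATF3, -0.53 (0.10) for CHAC1 and -0.42 (0.09) for ATF5, and these 3 were called lower and 0 of the 10 higher, where 17.6% of all genes were called lower and 4.74% higher (unadjusted, 5 lower and 1 higher of the 10). The median of all genes was -0.19. DDIT3 had 0.31 (0.10) and ASNS 0.14 (0.08), and with the length trend removed these were 0.13 and 0.30. Median-ratio scaling left ATF3 as the only 1 of the 10 called lower, at -0.52, with DDIT3 (0.52) and ASNS (0.35) called higher. After quantile normalization ATF3 (-0.59), ATF4 (-0.35) and DDIT4 were called lower and DDIT3 (0.45) higher. CHAC1 (-0.39) and ATF5 (-0.27) were then not called. Put as totals against the controls, both agents together gave 1.61 for ATF3, where the 2 single agents sum to 2.34, and 1.52 for CHAC1, where they sum to 2.05. For DDIT3 the total was 1.3 and the sum 0.99, and for ASNS they were 1.17 and 1.03. By mean FPKM the cells with both agents had 3.56-fold more ATF3, 3.20-fold more CHAC1, 2.54-fold more DDIT3 and 2.28-fold more ASNS than the controls.

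Whether IFN-γ itself moves these genes was asked by comparing IFN-γ with Control. Its samples also entered the 2 comparisons on which DDIT3 and CHAC1 were singled out, so these 2 genes are given as values only. CHAC1 was 2.00-fold higher, by 0.88 (0.08), with no overlap of the groups, and DDIT3 differed by 0.08 (0.06). ATF3 rose 3.40-fold, by 1.55 (0.06, adjusted p = 1.59e-05 from limma over 4918 genes) and ASNS rose 1.3-fold, by 0.37 (0.06, adjusted p = 0.00925). With CHAC1 included, 3 of the 10 were called higher and 0 lower, where 8.46% of all genes were called higher and 11.0% lower, and at an unadjusted p under 0.05 the counts were 5 and 1. ATF4 differed by 0.10 (0.05, adjusted p = 0.202) and did not pass. CEBPB differed by 1.73 (0.64, adjusted p = 0.114) with its groups apart, and without Control 2, its low control, the difference was 0.95 (adjusted p = 0.0243). CEBPB also passed where only genes with a mean of at least 1 FPKM were fitted (1.73, adjusted p = 0.0129). DDIT4 differed by -0.21 (0.07, adjusted p = 0.0951), and by -0.29 (adjusted p = 0.0218) without IFN-γ 1. ATF5 (0.13, adjusted p = 0.0922), CTH (0.26, adjusted p = 0.227) and CEBPG (0.06, adjusted p = 0.721) did not pass the test. ATF5 did pass under median-ratio scaling (0.18, adjusted p = 0.0214) and with the length trend removed (0.13, adjusted p = 0.0356). In 6 genes all IFN-γ samples lay above the controls and in DDIT4 all lay below, against 15.0% and 22.0% of all genes.

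IFN-γ was also compared within SB-3CT-treated cells (SB-3CT+IFN-γ against SB-3CT). The samples are again shared with the comparisons above, and DDIT3 and CHAC1 have values only, 0.39 (0.08) and 0.35 (0.07), with no overlap between the groups. With the length trend removed DDIT3 was at 0.24 and was no longer called higher. ATF3 rose by 0.82 (0.06, adjusted p = 0.000436 from limma) and ASNS by 0.51 (0.05, adjusted p = 0.000845), and both held under each scaling tried. DDIT4 fell by 0.44 (0.05, adjusted p = 0.00112) and ATF5 by 0.28 (0.07, adjusted p = 0.0225), while the median of all genes was -0.21. Under median-ratio scaling neither passed, with -0.18 (adjusted p = 0.0534) for DDIT4 and -0.03 (adjusted p = 0.82) for ATF5. The call of ATF5 was also lost without SB-3CT 1, SB-3CT 2, SB-3CT+IFN-γ 2 or SB-3CT+IFN-γ 3 (-0.27 to -0.23). ATF4 (-0.04, adjusted p = 0.515), CTH (-0.08, adjusted p = 0.295), CEBPG (0.01, adjusted p = 0.951) and CEBPB (-0.87, adjusted p = 0.659) did not pass, but ATF4 passed in opposite directions under median-ratio scaling (0.22, adjusted p = 0.0444) and quantile normalization (-0.15, adjusted p = 0.0257). With DDIT3 and CHAC1 included, 4 of the 10 were called higher and 2 lower, where 7.85% of all genes were called higher and 32.7% lower, and the groups did not overlap in 4 higher and 3 lower, against 9.84% and 41.9%.

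**Figure D4:**
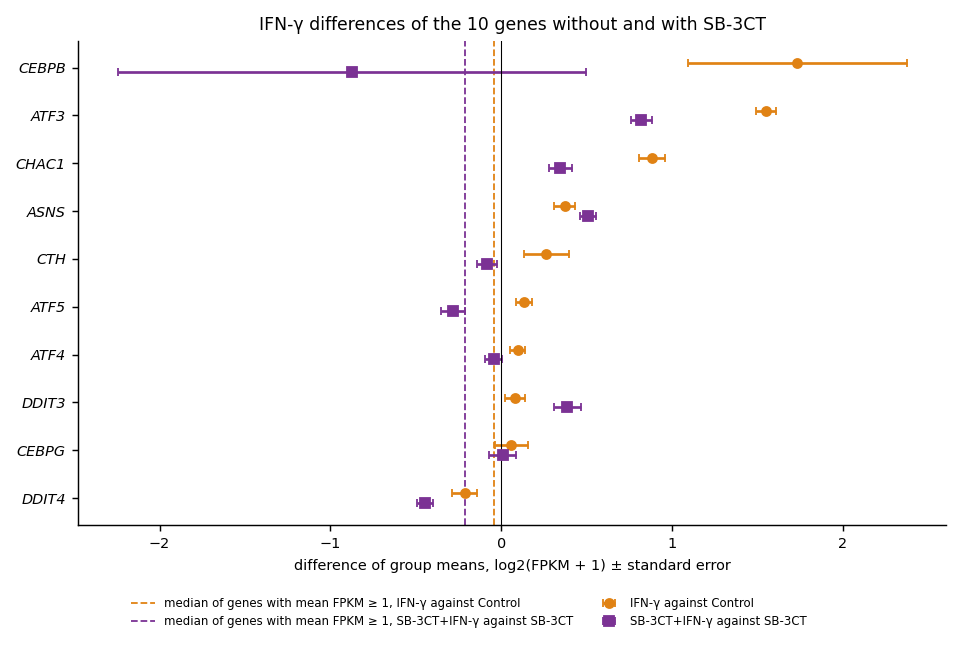
Difference of group means, log2(FPKM + 1), with its standard error for each of the 10 genes: IFN-γ against Control and SB-3CT+IFN-γ against SB-3CT, with dashed lines at the median of all genes with a mean of at least 1 FPKM (-0.04 and -0.21). ATF3 has 1.55 and 0.82, DDIT3 has 0.08 and 0.39, and DDIT4 lies left of 0 in both.

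The genes whose pattern over the 12 samples was nearest to that of DDIT3 were found by the root-mean-square difference of centred log2 values, among genes with a mean of at least 1 FPKM. The values were not scaled, so the distance depends on the size of a change as well as on its direction. DDIT3 was chosen for its difference with SB-3CT, so the ranks are a description. ASNS was the nearest of all, at 0.218, and CHAC1 was 6th, at 0.312, while ATF4 was 83rd, at 0.428, and ATF3 1388th, at 0.634. The 5 nearest genes outside the 10 were C20orf24 (0.291), CYP1A1 (0.295), which encodes a monooxygenase induced through the aryl hydrocarbon receptor, ATP5I (0.297), a subunit of ATP synthase, CDC42EP1 (0.302), an effector of CDC42, and AKR1B1 (0.313), which encodes aldose reductase.

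The comparison was extended to 5 further lists of stress-response genes. Their counts stand beside 5.37% of all genes called higher and 6.87% lower with SB-3CT alone, 6.41% and 31.5% with SB-3CT under IFN-γ, and 8.46% and 11.0% with IFN-γ alone. Of 13 other genes described as ATF4 or CHOP targets, 4 rose with SB-3CT alone and 1 fell, and their median was 0.20, against -0.03 for all genes. AARS, an alanyl-tRNA synthetase gene, rose by 0.34 (0.04, adjusted p = 0.00645 from limma), EIF4EBP1, which encodes an inhibitor of cap-dependent translation, by 0.25 (0.06, adjusted p = 0.0441) and CARS, a cysteinyl-tRNA synthetase gene, by 0.24 (0.04, adjusted p = 0.0169). The other was ADM2, at 0.49 (0.08, adjusted p = 0.0133), a peptide hormone gene named after its value was seen. EPRS, a glutamyl-prolyl-tRNA synthetase gene, fell by 0.34 (0.08, adjusted p = 0.0344). EIF4EBP1 was no longer called under median-ratio scaling (0.29, adjusted p = 0.0604) or quantile normalization (0.15, adjusted p = 0.115).

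Under IFN-γ, SB-3CT raised 1 of the same 13 genes, EIF4EBP1, by 0.31 (0.07, adjusted p = 0.00995 from limma), and 3 fell, EPRS by 0.65 (0.07, adjusted p = 0.00207), the ER oxidase gene ERO1A by 0.45 (0.09, adjusted p = 0.0069) and the proline synthesis gene ALDH18A1 by 0.35 (0.06, adjusted p = 0.00492). This split turned with the scaling: 5 were higher and 2 lower under median-ratio scaling, and 4 higher and 1 lower once the trend with transcript length was taken out of every sample. EPRS stayed lower under each scaling. With IFN-γ alone 3 of the 13 rose and 1 fell, among them BBC3, which encodes the death protein PUMA, by 0.96 (0.23, adjusted p = 0.0310). The BBC3 controls were uneven, at 11.3 to 20.8 FPKM, with an SD of 0.48 on the log2 scale. Its IFN-γ samples lay at 33.0 to 36.2 FPKM, with an SD of 0.07.

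Of 13 genes for eIF2 kinases and translation machinery, 0 rose and 1, EIF2A, fell with SB-3CT alone, by 0.38 (0.07, adjusted p = 0.0238 from limma). At an unadjusted p under 0.05, 1 was higher and 3 lower. EIF2A is not a gene of an eIF2 subunit. The subunit genes EIF2S1, EIF2S2 and EIF2S3 did not pass (-0.21, -0.15 and -0.15). Under IFN-γ, SB-3CT lowered 9 of the 13 and raised 0 (unadjusted, 10 and 0), where 31.5% of all genes were lower, with 4 lower and 2 higher under median-ratio scaling. The 3 largest falls were those of kinase genes, EIF2AK2 (PKR, which senses double-stranded RNA) by 0.93 (0.09, adjusted p = 0.00207), EIF2AK1 (HRI, which senses heme shortage) by 0.86 (0.18, adjusted p = 0.00958) and EIF2AK4 (GCN2, which senses amino acid shortage) by 0.65 (0.07, adjusted p = 0.00207). EIF2AK1 was not called with the length trend removed (-0.48, adjusted p = 0.104), whereas EIF2AK2 and EIF2AK4 were called under each scaling. IFN-γ alone raised EIF2AK2 by 1.21 (0.08, adjusted p = 0.000324) and EIF2AK1 by 0.48 (0.07, adjusted p = 0.00634). IFN-γ alone also lowered 4 of the 13, where 11.0% of all genes were lower. Among these were EIF2B2 (-0.47, adjusted p = 0.000874), EIF2B3 (-0.43, adjusted p = 0.00751) and EIF2B4 (-0.22, adjusted p = 0.0479).

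Of 13 genes of the IRE1 and ATF6 arms of the ER stress response, CRELD2, an ER stress-induced chaperone gene, rose with SB-3CT alone by 0.45 (0.06, adjusted p = 0.00834 from limma) and EDEM3, an ER mannosidase-like gene, fell by 0.43 (0.11, adjusted p = 0.0495). Under IFN-γ 2 rose with SB-3CT, the BiP co-chaperone gene DNAJB9 by 0.38 (0.07, adjusted p = 0.00724) and CRELD2 by 0.21 (0.05, adjusted p = 0.0183), and 7 fell, with EDEM3 at -0.67, DNAJC3 at -0.62 and CANX at -0.50, again beside 31.5% of all genes lower. Under median-ratio scaling 2 were higher and 4 lower.

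Of 23 other bZIP factor genes in the table, 1 rose and 1 fell with SB-3CT alone, and 1 rose and 9 fell with SB-3CT under IFN-γ, a share lower that is near the 31.5% of all genes. The split became 4 higher and 2 lower under median-ratio scaling. The rise was that of CREM, a cAMP-responsive modulator, by 0.65 (0.08, adjusted p = 0.00222 from limma), and it held under each scaling. IFN-γ alone raised 4 of the 23 and lowered 1. Among the rises were BATF2 by 4.08 (0.13, adjusted p = 8.4e-06), BATF3 by 2.18 (0.08, adjusted p = 1.8e-05) and CEBPD by 1.14 (0.21, adjusted p = 0.0130). The fall was that of CREB3L2 (-0.41, adjusted p = 0.00432). Of 7 autophagy genes described as ATF4 or CHOP targets, 0 passed with SB-3CT alone, with 0 higher and 3 lower at an unadjusted p under 0.05. Under IFN-γ, SB-3CT lowered 3 of them, BECN1, ATG16L1 and ATG10, by 0.37, 0.30 and 0.27, which is also near the share of all genes, and under median-ratio scaling 0 of the 7 were lower and 1 was higher.

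**Figure D5:**
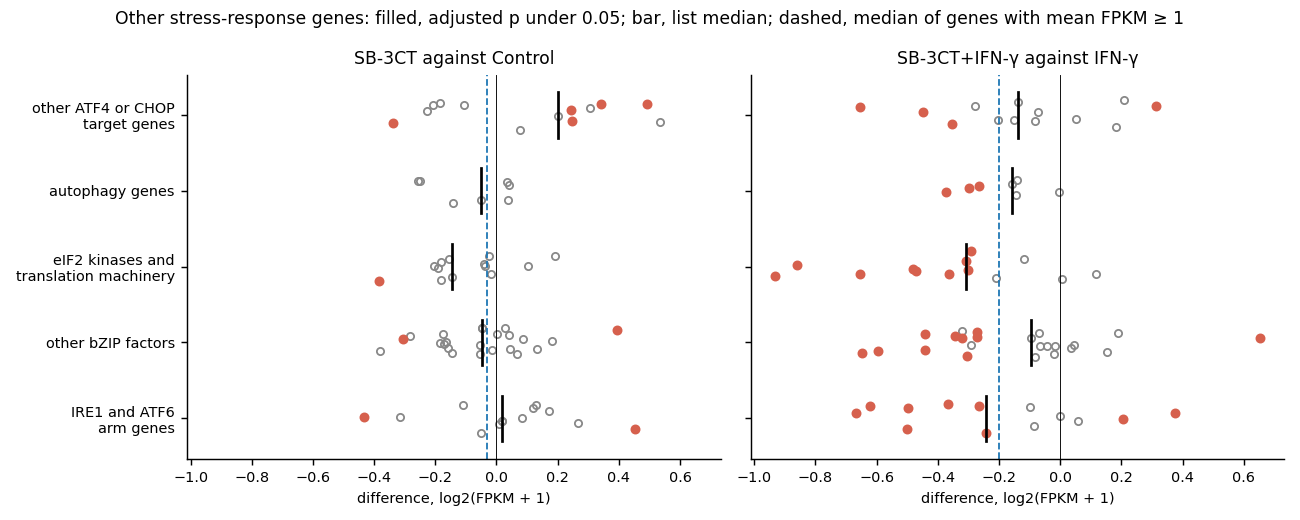
Differences, log2(FPKM + 1), of the genes of the 5 further lists (1 point per gene, filled at an adjusted p under 0.05, black bar at the list's median, dashed line at the median of all genes with a mean of at least 1 FPKM) for SB-3CT against Control and SB-3CT+IFN-γ against IFN-γ. The filled points of the other ATF4 or CHOP targets are 4 to the right and 1 to the left of 0 without IFN-γ, and 1 to the right and 3 to the left with it.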

How the data were processed

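The authors sequenced paired-end reads, aligned them to hg19 with HISAT2 2.0.5 and calculated FPKM with StringTie 1.3.3, per the methods and the submitters' processing notes. The annotation and the use of strand are not given in the sources used here. The deposited values are log2 values that fit log2(FPKM + 1): 2 to the power of the value minus 1 sums to 121928 to 129692 per sample, and the highest value is 12.16. They were used without further scaling, and 0 columns of sample values were left unused. FPKM in the text is computed back from them. Because a pseudocount of 1 is included, differences understate the change of low genes.

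The 10 genes, the further lists and the tests were chosen with earlier results of these data known. Groups came from the sample labels. Each comparison was an unpaired limma fit (version 3.58.1, R 4.3.3) to its own 3 + 3 samples, with eBayes and a mean-variance trend, with Benjamini-Hochberg adjustment over all 4918 genes, and the difference of the SB-3CT differences was fitted over all 12 samples. An exact permutation test of 3 samples against 3 cannot give a p under 0.1, and none was run. The functions were tested on simulated data. Counting error is not given, because the number of reads is unknown.

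From each further list, up to 3 largest rises and 3 largest falls per comparison qualified for naming among genes with an adjusted p under 0.05, a mean of at least 1 FPKM and no overlap of the groups, besides the 10 genes, the 5 nearest to DDIT3, CXCL10 and CD274. ERO1L was matched as ERO1A. Positions, transcript lengths, GC content and promoter letters came from GENCODE release 44 mapped to GRCh37, in which 4458 symbols matched directly and 429 by an older symbol through RefSeq, and 99.4% had a transcript length. Same-numbered samples did not deviate together in every pair (correlations of -0.39 to 0.17), so the numbers were not taken to pair samples. Alternatives were median-ratio scaling (size factors are medians, over genes, of FPKM relative to the geometric mean), quantile normalization, removal of the length or GC trend, a pseudocount of 0.1, a minimum mean of 1 FPKM, a replicate block, a joint fit of the 4 groups, eBayes with no trend or robust, each sample left out in turn, and a fold change over 1.5 with an unadjusted p under 0.05.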

Additional observations from a re-analysis of the deposited data

Results flagged for a closer look

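With SB-3CT, ATF5 was higher in all 3 samples without IFN-γ and lower in all 3 with it, a difference of -0.42 on the log2(FPKM + 1) scale. The fit over all 12 samples called it lower, which is given as a description because the genes were chosen on the 2 comparisons it is built from. Under median-ratio scaling (0.12) and quantile normalization (0.01) ATF5 was no longer lower with SB-3CT under IFN-γ, so the opposite directions were lost, and the differences of -0.21 and -0.27 were between values above 0.

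In 18 of the 69 genes of the further lists, 2 higher and 16 lower, the SB-3CT differences with and without IFN-γ differed in limma's fit over all 12 samples (adjusted p under 0.05), where 17.6% of all genes were called lower and 4.74% higher and the median of all genes was -0.19. The 13 that the rule for named genes covers were EIF2AK1 (-0.96), EIF2AK2 (-0.74), EIF2AK4 (-0.47), DBP (-0.46), ATF2 (-0.44), DERL1 (-0.40), CANX (-0.39), EIF2B1 (-0.34), CARS (-0.32), EIF2B4 (-0.31) and CRELD2 (-0.25), which were lower, and CREM (0.57) and DNAJB9 (0.36), which were higher, and the other 5 lay at -0.45 to -0.34. Under median-ratio scaling, EIF2AK2 (-0.54, adjusted p = 0.0259), CREM (0.78, adjusted p = 0.00864) and DNAJB9 (0.55, adjusted p = 0.0039) still passed, and the other 10 of the 13 kept their sign with adjusted p-values of 0.0722 to 0.823.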

How the results depend on the processing

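The number of the 10 genes called moved by over 1.5 times in these cases. For IFN-γ against Control, 1 was lower (DDIT4) with all 4 groups in one fit or a mean of at least 1 FPKM, against 0. For SB-3CT+IFN-γ against IFN-γ, 8 were higher under median-ratio scaling, against 4, and 1 was lower with the GC trend removed (ATF5) or a mean of at least 1 FPKM (CEBPB), against 0. For SB-3CT+IFN-γ against SB-3CT, a fold change over 1.5 with an unadjusted p under 0.05 left 1 higher and 0 lower, against 4 and 2, and 1 was lower with the length trend removed and 0 under median-ratio scaling. For the difference of the SB-3CT differences, 1 was higher with the GC trend or the length trend removed, with quantile normalization or with a mean of at least 1 FPKM, and 2 under median-ratio scaling, against 0, and 1 was lower after that scaling, against 3. With each sample left out in turn, the counts higher and lower were 4 to 6 and 0 for SB-3CT against Control, 3 to 4 and 0 to 1 for SB-3CT+IFN-γ against IFN-γ, 3 to 4 and 0 to 1 for IFN-γ against Control, 4 and 1 to 2 for SB-3CT+IFN-γ against SB-3CT, and 0 to 1 and 3 to 5 for the difference. Genes also changed places where a count stayed the same. After quantile normalization ATF4 and DDIT4 replaced CHAC1 and ATF5 among the lower of the difference. The same normalization put ATF4 in place of ATF5 among the lower of SB-3CT+IFN-γ against SB-3CT. With the length trend removed CEBPG replaced ATF4 among the higher of SB-3CT+IFN-γ against IFN-γ. The cause of these changes was not tested.

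In SB-3CT+IFN-γ against IFN-γ, signs turned for ATF4 after quantile normalization (-0.046), for ATF5 under median-ratio scaling (0.12) and quantile normalization (0.01), for DDIT4 under median-ratio scaling (0.18) and without IFN-γ 1 (0.0023), and for CTH without IFN-γ 2 (-0.056). In the difference of the SB-3CT differences they turned for ATF4 under median-ratio scaling (0.073) and for CEBPG under 5 alternatives (0.0036 to 0.20), and in SB-3CT against Control for CEBPB without Control 2, SB-3CT 2 or SB-3CT 3 (-0.26 to -0.0062). In SB-3CT+IFN-γ against SB-3CT they turned for ATF4 under median-ratio scaling (0.22, adjusted p = 0.0444 from limma, where quantile normalization gave -0.15, adjusted p = 0.0257), for CTH after that scaling (0.14), quantile normalization (0.11) and removal of the length trend (0.013), and for CEBPG with the GC trend removed (-0.0045) or with samples left out in turn (-0.057 to 0.056), where SB-3CT 2, SB-3CT 3 and SB-3CT+IFN-γ 3 each turned it. In IFN-γ against Control CEBPG ranged from -0.0025, without IFN-γ 1, to 0.13. With the replicate number as a block, 5 of the 10 were higher with SB-3CT alone (ATF5 was not), 4 with SB-3CT under IFN-γ, and 3 with IFN-γ alone, and the block changed no other call of the 10.

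Absolute depth is unknown, so counting error could not be set beside the differences of the genes with the lowest FPKM, CTH, ATF3, CEBPG and CHAC1.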
